A study of Mus musculus with 2 samples.

Results

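The ureteric mesenchyme (UM) gives rise to the smooth muscle cells (SMCs), lamina propria fibrocytes and adventitial cells of the ureter, and a set of transcription factors marks it and directs its differentiation. A set of 10 such genes, called the members below, was followed in newborn mouse ureters after inhibition of WNT secretion: *Myocd*, *Srf*, *Tshz2*, *Tshz3*, *Sox9*, *Foxf1*, *Foxf2*, *Foxc1*, *Foxd1* and *Tcf21*. They were chosen by gene name, with every probe that carries the name and is no control spot, which gave 10 of 29924 gene names and 13 of 39429 probes on the array. *Foxf1*, *Srf* and *Tshz2* had 2 probes each and the other 7 genes had 1.

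Ureters of wild-type NMRI mice were taken at birth (P0) and cultured for 18 h, either with 5 µM IWP-2 or with the solvent DMSO at 1:1000. IWP-2 blocks PORCN, the acyltransferase that WNT ligands need to leave the cell. Each of 2 two-colour Agilent arrays compared 1 control pool with 1 treated pool of 5 to 6 whole ureters each, from female pups (replicate 1) or male pups (replicate 2), and the second array carried the dyes the other way round. Sex, dye orientation and replicate therefore changed together and cannot be told apart. Whole ureters hold urothelium, mesenchyme, vessels and nerves, so that fewer cells of a type and less RNA per cell cannot be told apart for any gene below.

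As background, MYOCD is a coactivator without DNA binding of its own that joins SRF, a MADS-box factor, on CArG boxes in front of contractile genes. The zinc finger factor TSHZ3 is required for *Myocd* activation in the ureter, and the HMG-box factor SOX9 is a binding partner of TSHZ3. FOXF1 and FOXF2 are forkhead factors that act in mesenchyme next to SHH-secreting epithelia. FOXC1 and FOXD1 are forkhead factors of intermediate mesoderm and of stromal cells around kidney and ureter, and TCF21 is a basic helix-loop-helix factor of the same stroma. Canonical WNT signals reach their targets through β-catenin and TCF/LEF factors.

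The probes are 60 bases long, and their first 30 bases are shown for the genes on which the results below turn, because a probe is what each value measures. The files place them on mm9, and whether a probe lies in coding sequence or in an untranslated region was not assigned here. The probes of *Foxf1* lie at chr8:123611944-123612003 (probe 1) and chr8:123610681-123610740 (probe 2). Those of *Tshz2* lie at chr2:169713711-169713770 (probe 1) and chr2:169711933-169711992 (probe 2). The single probes lie at chr7:37557872-37557931 for *Tshz3*, chr11:112648809-112648868 for *Sox9* and chr11:64991930-64991989 for *Myocd*. Probe 1 is the brighter of a pair.
Foxf1 probe 1: cctcctttctgcactgtataaaagggacaa
Foxf1 probe 2: ttcaatgccatggcctcttcttctatgcat
Sox9: ataaaaccttaaagcgttcttataatatgg
Myocd: taatctgaattcccctatggatctccactt
Tshz2 probe 1: catgactgtacatcttaccttattgaatgg
Tshz2 probe 2: aagaggacacagactctaaattcaagtgta
Tshz3: agaaattaaaggatgctcaaagtaaactca

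All 13 probes were well above background in all 4 channels. Of the 10 members, 9 passed the filter for testing, a mean array signal above 100 in control or in treated ureters, and *Foxf2* did not. The comparison asked whether expression of these factors changed when WNT secretion was blocked. It was tested with limma on the log2 ratio of IWP-2 over control of each array, adjusted by Benjamini-Hochberg over all 14336 genes tested, with a threshold of 0.05. None of the 9 was called, a count of 0, where limma called 1.25% of all genes tested. At an unadjusted p under 0.05 there were 3 (*Foxf1*, *Sox9* and *Myocd*), and 12.9% of all genes tested.

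Of the 9 members tested, 3 were higher with IWP-2 on both arrays (*Foxf1*, *Sox9*, *Myocd*), 3 were lower on both (*Foxd1*, *Srf*, *Tshz2*) and 3 went opposite ways (*Foxc1*, *Tcf21*, *Tshz3*). Over all genes tested 25.7% were higher on both arrays, 29.1% were lower on both and 45.2% went opposite ways. The median of the mean log2 ratios was −0.0013 over the 9 members and −0.0060 over all genes tested. The 95% interval of the mean lay inside a 1.5-fold change, 0.58 on the log2 scale, for 7 of the 9 members and for 96.7% of all genes tested. *Foxf1* and *Tshz3* were the exceptions, since their intervals reached past 1.5-fold, in opposite directions. The smallest mean log2 ratio that limma called among all genes was 0.41 in size under these settings.

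**Figure D1:**
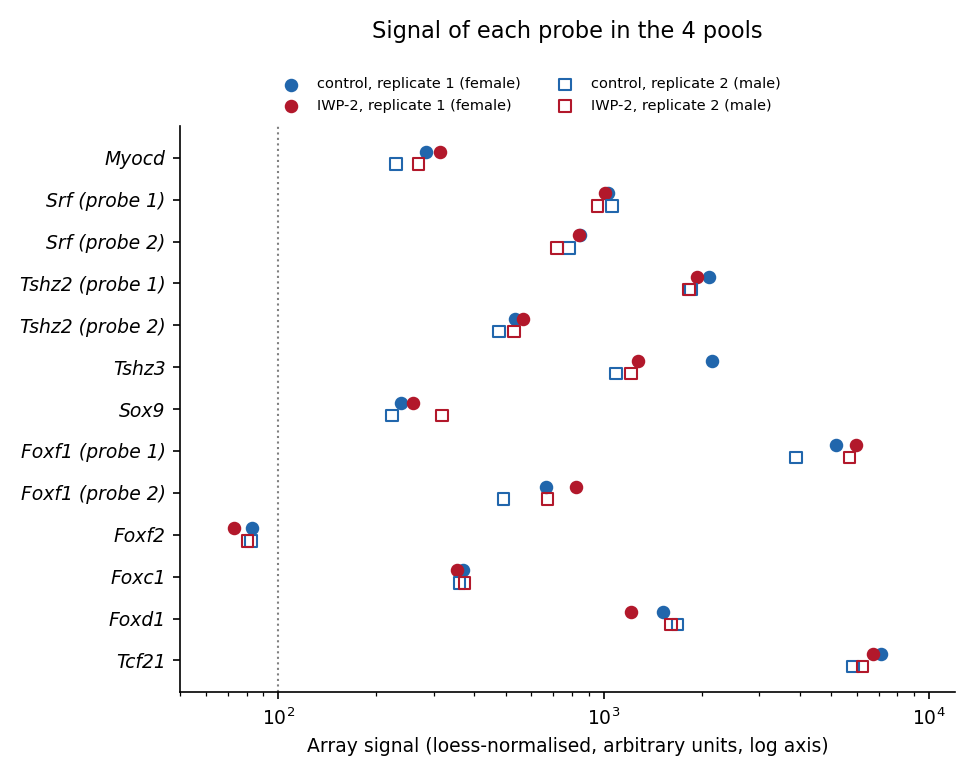
Array signal (x axis, arbitrary units, log axis) of the 13 probes in the 4 pools, with filled circles for replicate 1, open squares for replicate 2, blue for control and red for IWP-2. The dotted line marks a signal of 100. Both *Foxf1* probes lie to the right with IWP-2, the control signal of *Tshz3* in replicate 1 stands apart from the other 3 pools, and *Foxf2* lies left of the line. Signals of different probes cannot be set against each other.

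The forkhead factor *Foxf1* had the largest mean log2 ratio in size among the members. On probe 1 its signal was 5188 without and 5966 with IWP-2 in replicate 1, and 3902 without and 5690 with it in replicate 2. Both treated pools lay above both control pools. The log2 ratio was 0.20 on the first array and 0.54 on the second, which averaged 0.37 (SE 0.095, n = 2 arrays, 95% interval 0.15 to 0.60) and an adjusted p of 0.149 in limma.

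Probe 2 of *Foxf1*, which lies elsewhere in the gene, gave a like picture. Its signal was 664 without and 825 with IWP-2 in replicate 1, and 492 without and 672 with it in replicate 2. The treated pool lay above the control pool on each array, and the control pool of replicate 1 fell just short of the treated pool of replicate 2. The mean log2 ratio of probe 2 was 0.38 (SE 0.072), with an adjusted p of 0.0938 in limma over 18403 probes, of which 0.772% were called. Every spot kept for either probe was higher with IWP-2, 3 on each array for probe 1 and 4 on each array for probe 2. The 2 probes measure the same RNA and are no independent samples.

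*Foxf2*, the closest relative of *Foxf1*, was weakly detected. Its signal was 83.1 without and 73.3 with IWP-2 in replicate 1, and 82.6 without and 80.5 with it in replicate 2. The treated pool was the lower one on both arrays, by −0.18 and −0.04 on the log2 scale. When the filter was dropped and genes at the floor were left out, so that *Foxf2* could be fitted, its mean log2 ratio was −0.11 (SE 0.077) with an adjusted p of 0.725 in limma.

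*Sox9* followed *Foxf1* in size. Its signal was 239 without and 260 with IWP-2 in replicate 1, and 224 without and 318 with it in replicate 2. Both treated pools were higher than both control pools, and the treated pool of replicate 2 stood above the other 3. The log2 ratio was 0.12 and 0.51, with a mean of 0.31 (SE 0.101, 95% interval 0.07 to 0.56) and an adjusted p of 0.234 in limma. All 4 spots were higher with IWP-2 on each array, between 0.10 and 0.13 in replicate 1 and between 0.46 and 0.57 in replicate 2.

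*Myocd* had a signal of 285 without and 314 with IWP-2 in replicate 1, and 230 without and 270 with it in replicate 2. The control pool of replicate 1 lay above the treated pool of replicate 2, so that the groups overlapped, although each treated pool was above its own control. The log2 ratio was 0.14 and 0.23, with a mean of 0.19 (SE 0.069, 95% interval 0.02 to 0.35) and an adjusted p of 0.316 in limma.

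*Srf* gave nearly the same signal with and without IWP-2. Probe 1 gave 1031 without and 1011 with IWP-2 in replicate 1, and 1060 without and 956 with it in replicate 2. Probe 2 gave 844 and 840, and 783 and 719, in the same order. Both probes were lower with IWP-2 on both arrays by small amounts, and single spots of replicate 1 fell on either side of 0. The mean log2 ratio of probe 1 was −0.09 (SE 0.071, 95% interval −0.26 to 0.08) with an adjusted p of 0.791 in limma, and that of probe 2 was −0.07.

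**Figure D2:**
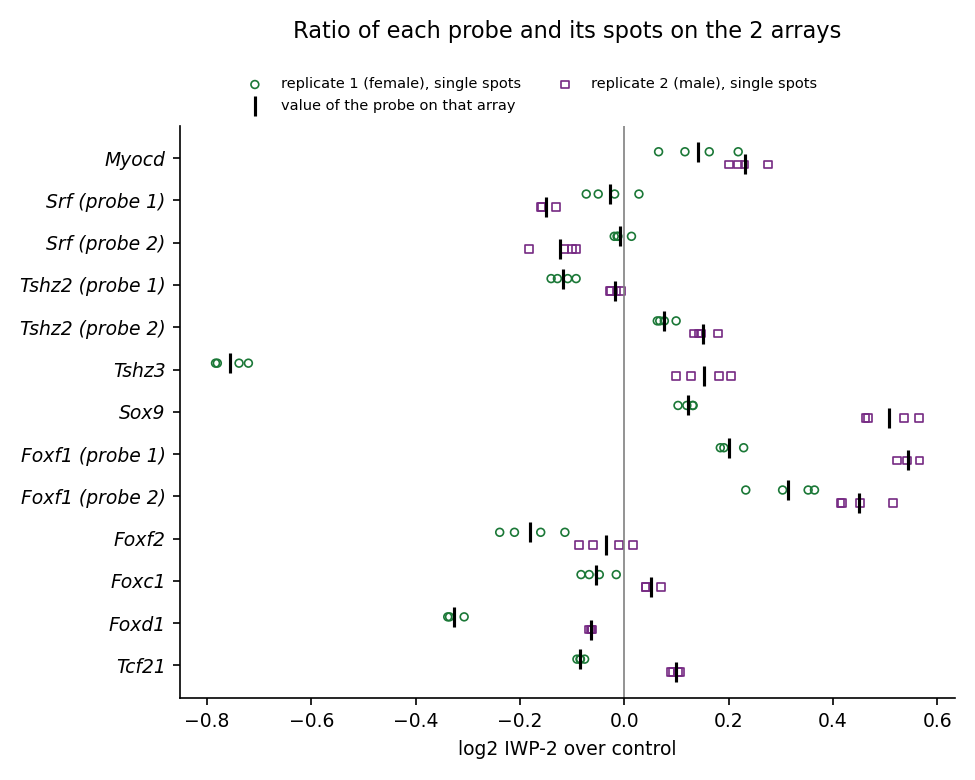
The log2 ratio of IWP-2 over control (x axis) of each probe on the 2 arrays, with black ticks for the probe and open symbols for its single spots, green circles for replicate 1 and purple squares for replicate 2. The spots of *Tshz3* lie between −0.78 and −0.72 in replicate 1 and between 0.10 and 0.20 in replicate 2. For both *Foxf1* probes and *Sox9* every spot lies right of 0.

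*Tshz3* differed most between the arrays. Its signal was 2154 without and 1275 with IWP-2 in replicate 1, and 1090 without and 1213 with it in replicate 2. The control pool of replicate 1 stood alone, while the other 3 pools lay close together. The log2 ratio was −0.76 on the first array, past the 1.5-fold line, and 0.15 on the second, and averaged −0.30 (SE 0.191, 95% interval −0.76 to 0.16) and an adjusted p of 0.686 in limma.

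The gap in *Tshz3* was far larger than the spread of its spots. All 4 spots were lower with IWP-2 in replicate 1, from −0.78 to −0.72 on the log2 scale, and all 4 were higher in replicate 2, from 0.10 to 0.20. The control pools differed by 0.98 on the log2 scale, the 7th largest excess of replicate 1 over replicate 2 among 14336 genes, and the treated pools by 0.07. In replicate 1 taken alone, 1.05% of the genes with a control signal above 100 on both arrays were lower by 1.5-fold or more, and *Tshz3* was the only member among them. One pool per channel gives no spread between pools of a sex, and the difference between the arrays was not tested.

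*Tshz2* showed no such gap, and its probes disagreed in sign. Probe 1 gave 2106 without and 1942 with IWP-2 in replicate 1, and 1854 without and 1831 with it in replicate 2. Probe 2 gave 535 and 564, and 477 and 530, in the same order. All spots of probe 1 were lower and all spots of probe 2 were higher with IWP-2, on both arrays. The mean log2 ratio was −0.07 (SE 0.069, adjusted p = 0.863 in limma) for probe 1 and 0.11 (SE 0.069, adjusted p = 0.629 in limma over all probes) for probe 2, so that neither direction was called. *Tshz1*, the third teashirt gene, resembled *Tshz3*, with 2857 without and 1892 with IWP-2 in replicate 1, and 1692 without and 1718 with it in replicate 2. Its log2 ratio was −0.59 and 0.02, with a mean of −0.29 (SE 0.138, adjusted p = 0.492 in limma).

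**Figure D3:**
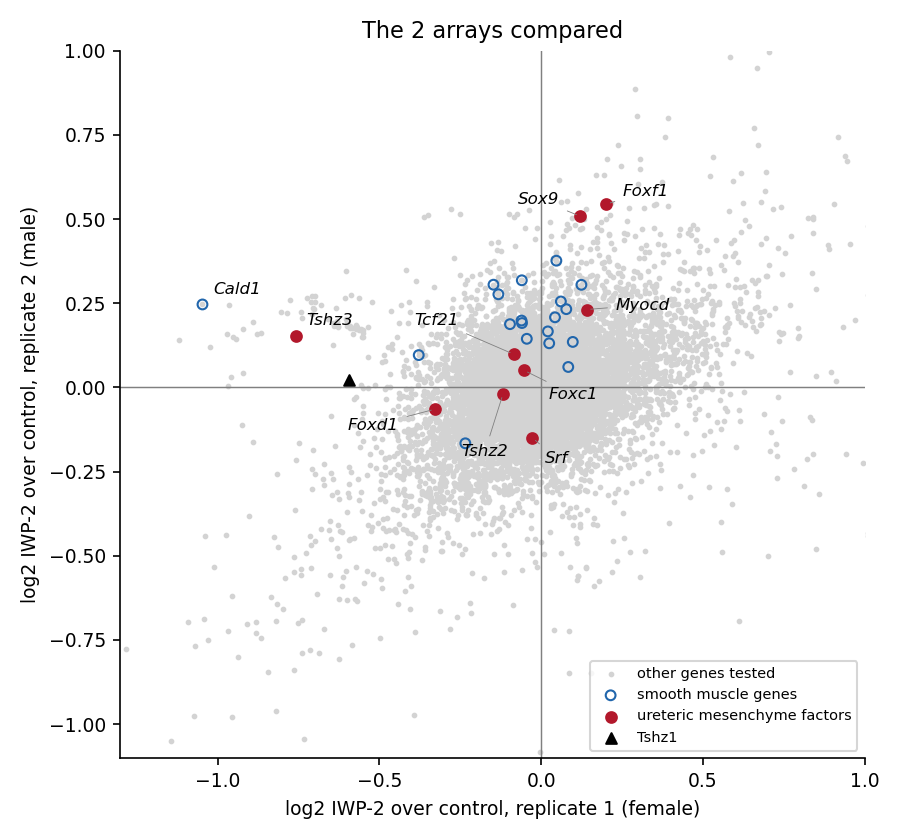
The log2 ratio of IWP-2 over control in replicate 1 (x axis) and in replicate 2 (y axis), with grey dots for all genes tested, red for the 9 members, open blue circles for 19 smooth muscle genes and a black triangle for *Tshz1*. *Foxf1*, *Sox9* and *Myocd* lie in the upper right quadrant, *Tshz3* and the smooth muscle gene *Cald1* far to the left and above 0. The axes leave out 62 of 14336 genes, none of them a member.

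The stromal factors gave small differences, none of them called. *Foxd1* had a signal of 1517 without and 1210 with IWP-2 in replicate 1, and 1687 without and 1613 with it in replicate 2. The treated pool was lower on both arrays, and the pools of replicate 2 lay above those of replicate 1. The log2 ratio was −0.33 and −0.06, with a mean of −0.20 (SE 0.084, 95% interval −0.40 to 0.01) and an adjusted p of 0.411 in limma.

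*Foxc1* gave 369 without and 355 with IWP-2 in replicate 1, and 360 without and 373 with it in replicate 2. The 4 pools lay within a few percent of each other, and the arrays went opposite ways, with log2 ratios of −0.05 and 0.05. *Tcf21* gave 7145 and 6742 in replicate 1, and 5844 and 6257 in replicate 2, with log2 ratios of −0.08 and 0.10. Both control pools of *Tcf21* lay outside the range of the treated pools, 1 above and 1 below. The mean was −0.0013 (95% interval −0.17 to 0.17) for *Foxc1* and 0.0072 (95% interval −0.17 to 0.19) for *Tcf21*.

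**Figure D4:**
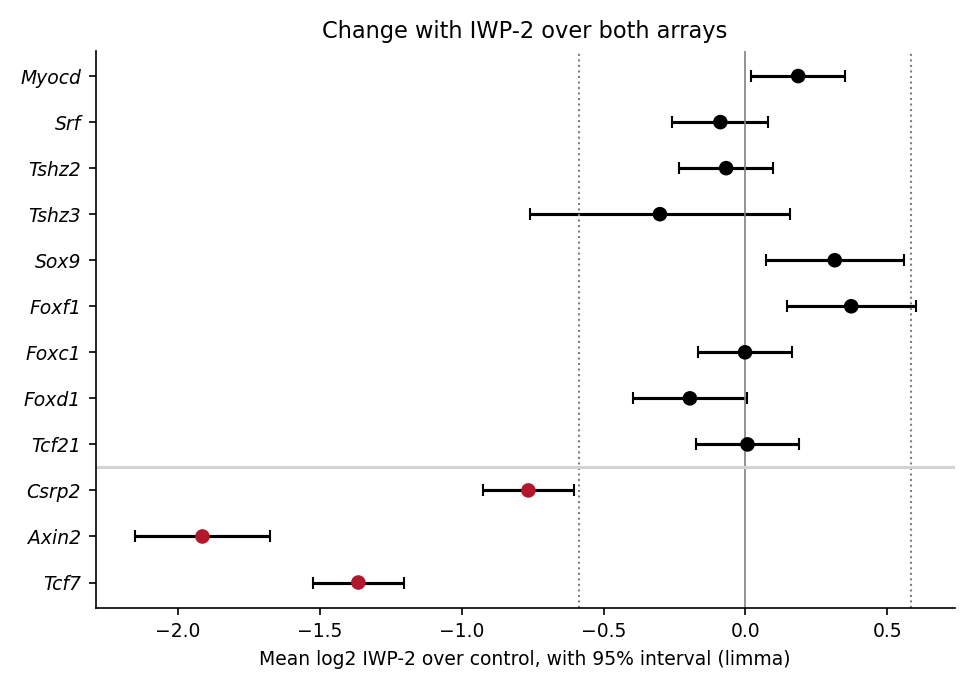
Mean log2 ratio of IWP-2 over control of both arrays with its 95% interval from limma for the 9 members tested (black) and for 3 genes called lower (red). Dotted lines mark a 1.5-fold change. The intervals of *Foxf1*, *Sox9* and *Myocd* lie right of 0, without passing the adjusted threshold, and that of *Tshz3* is the widest among the members.

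The filter that follows the study, a control signal above 100 and a change of 1.5-fold or more on each array, gave the same count. Of the 9 members with enough control signal, 0 passed it in either direction, and 0.441% of 14051 genes did, 0.363% lower and 0.0783% higher. Of 11 WNT feedback genes, 8 passed the signal filter and limma called all 8 lower, where 0.886% of all genes tested were called lower. The list was chosen with earlier results of these data known. The study names *Axin2*, *Lgr5*, *Tcf7*, *Wif1* and *Nkd1* among the genes lowered on these arrays, so the count is no independent check of the treatment. *Apcdd1* lost its call with the mean of all probes (adjusted p = 0.0509), and *Axin2* and *Lgr5* were not tested there. Among the 8 called were *Axin2*, the scaffold of the β-catenin destruction complex, with a mean log2 ratio of −1.91 (SE 0.099, adjusted p = 0.000826), and *Tcf7*, a TCF/LEF factor, with −1.36 (SE 0.066, adjusted p = 0.000685). A second, dim probe of *Axin2* lay near the floor, and the mean over both probes was −1.12. The gene of the inhibited acyltransferase, *Porcn*, had a mean log2 ratio of −0.04.

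MYOCD and SRF meet their targets on CArG boxes, and the promoter of *Srf* itself holds such boxes, so its sequence is shown beside the levels of *Srf* and of the genes it serves. Promoter sequences were taken from RefSeq (GRCm38.p6), from 250 bases before to 50 bases after the start, and 7 of the 10 members had one (*Foxc1*, *Foxd1*, *Foxf2*, *Srf*, *Tcf21*, *Tshz2* and *Tshz3*). The 150 bases before the start of *Srf* lie at chr17:46556163-46556312 on the minus strand. Capitals mark the 2 CArG boxes, at positions −82 to −73 and −62 to −53, counted back from the base before the start as −1.
Srf promoter: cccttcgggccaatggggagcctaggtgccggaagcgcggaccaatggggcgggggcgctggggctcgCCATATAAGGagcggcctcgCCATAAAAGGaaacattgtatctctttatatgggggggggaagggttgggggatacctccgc

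The CArG box was searched as the strict letters CCWWWWWWGG, with W for A or T. It was found in 1 of the 7 member promoters, that of *Srf*, and in 1.63% of 32851 promoters. The TCF/LEF letters CTTTGAT or CTTTGAA were found in 0 of the 7 and in 8.65% of all promoters, searched on both strands. The forkhead letters TGTTTAC were found in 0 of the 7 and in 3.65% of all promoters, and the GLI letters GACCACC in 0 and 2.8%. These letters describe the windows searched and say nothing of sites elsewhere.

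Genes that MYOCD and SRF are known to drive in smooth muscle were described by the fit over all genes. Of 19 such genes limma called 0 lower and 0 higher, and their median log2 ratio was 0.08, beside −0.0060 over all genes tested. On replicate 1 the ratio was above 0 for 9 of the 19 and on replicate 2 for 18, with medians of −0.04 and 0.20. Of all 14336 genes tested, 6971 were above 0 on replicate 1 and 6875 on replicate 2. The intermediate filament gene *Des* had 0.21 (SE 0.075, adjusted p = 0.283 in limma), the enteric actin gene *Actg2* 0.21 (SE 0.093, adjusted p = 0.424) and the integrin gene *Itga8* −0.20 (SE 0.068, adjusted p = 0.264). Of the 16 with a promoter sequence, 1 held the strict CArG letters in the window searched, beside 1.63% of all promoters. It was the light chain gene *Myl9*, whose mean log2 ratio was 0.07. In the groups described below, 2 of 8 immediate early and cytoskeletal genes and 1 of 8 SRF partners and opponents had a promoter with these letters. These are counts of genes, and *Egr2* had more than 1 promoter, while 1.63% is a share of promoters. Boxes with other letters or outside the window were not searched, so these counts do not show which genes lack a CArG box.

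*Cald1*, encoding the actin-binding protein caldesmon, was the exception among the 19 on replicate 1. Its signal was 1679 without and 813 with IWP-2 in replicate 1, and 784 without and 930 with it in replicate 2. As for *Tshz3*, the control pool of replicate 1 stood alone and high. The log2 ratio was −1.05 and 0.25, with a mean of −0.40 (SE 0.262, adjusted p = 0.703 in limma).

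Among 10 partners and opponents of SRF, 9 were tested and limma called 1, *Csrp2*, encoding a LIM domain protein of smooth muscle that bridges SRF and GATA factors. Its signal was 15265 without and 9143 with IWP-2 in replicate 1, and 12581 without and 7276 with it in replicate 2. Both treated pools lay below both control pools, and the log2 ratio was −0.74 and −0.79, with a mean of −0.76 (SE 0.067, adjusted p = 0.00809 in limma). With the 4 channels taken as independent samples the call was lost, with an adjusted p of 0.514. *Klf4*, a zinc finger factor that opposes MYOCD, had 0.28 (SE 0.068, adjusted p = 0.138), and the SRF coactivator genes *Mkl1* and *Mkl2* had −0.14 and −0.01. The GATA factor gene *Gata6* had −0.19, with −0.38 in replicate 1 and 0.01 in replicate 2.

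Of 13 immediate early and cytoskeletal genes that SRF is known to drive in many cells, 11 were tested and 0 were called in either direction, with a median of 0.0033. The matricellular genes *Ctgf* and *Cyr61* had mean log2 ratios of −0.49 (SE 0.096, adjusted p = 0.0866 in limma) and −0.31 (SE 0.082, adjusted p = 0.160). The AP-1 gene *Fos* had 0.36 (SE 0.076, adjusted p = 0.103), and the zinc finger gene *Egr2* −0.27 (SE 0.094, adjusted p = 0.291). *Ctgf* and *Cyr61* were lower and *Fos* was higher on both arrays, each short of the threshold. With normexp background correction *Ctgf* passed it, with an adjusted p of 0.0481.

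**Figure D5:**
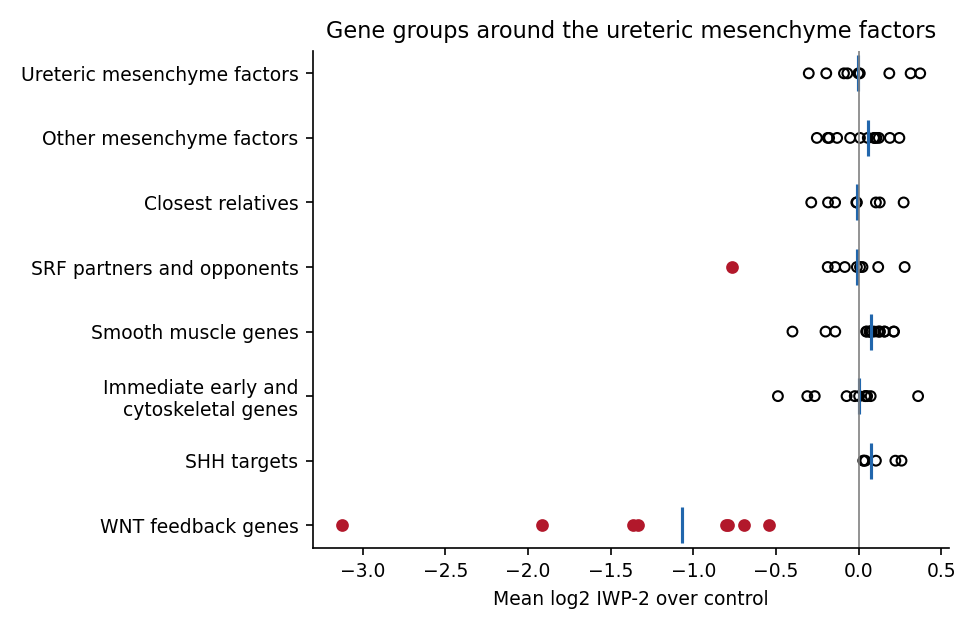
Mean log2 ratio of IWP-2 over control (x axis) of each tested gene in 8 groups, with open circles for genes that limma did not call, red for genes called and a blue tick for the median of the group. Called genes appear among the WNT feedback genes (8) and, with *Csrp2*, among the SRF partners (1). The other 6 groups hold 0.

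Other transcription factors of the UM were not called either. All 13 of them were tested and 0 were called in either direction, with a median log2 ratio of 0.06 and a range from −0.25 to 0.25. At the lower end stood *Twist1* (−0.25, SE 0.072, adjusted p = 0.187 in limma), a basic helix-loop-helix factor of mesenchyme. At the upper end stood *Tbx18* (0.25, SE 0.082, adjusted p = 0.257), the T-box factor that sets the UM apart from its surroundings. Of the 12 closest relatives of the members 8 were tested and 0 were called, with the forkhead gene *Foxd2* at 0.27 (SE 0.070, adjusted p = 0.154).

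FOXF factors act downstream of SHH, and 6 genes of that pathway around them were all tested and 0 were called, with a median of 0.07. *Gli1*, a transcriptional effector and target of SHH, had log2 ratios of 0.05 and 0.40, and *Ptch1*, the SHH receptor gene, 0.03 and 0.49. Their ratio was higher in replicate 2 than in replicate 1, as it was for *Foxf1*. The adjusted p in limma was 0.415 for *Gli1* and 0.417 for *Ptch1*. With the mean of both probes of *Ptch1*, the second of them dim, the mean log2 ratio was 0.65 and the adjusted p 0.0377 in limma. Across the alternatives run, *Gli1* was not called. Its mean log2 ratio ranged from 0.11 to 0.27, and its lowest adjusted p in limma was 0.271. *Bmp4*, encoding a mesenchymal signal of the ureter, had a mean of 0.04, and from 0.02 to 0.09 across the alternatives. The forkhead genes *Foxl1* and *Foxc2*, which neighbour *Foxf1* in the genome, had 0.10 and −0.01.

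Of 9 cartilage genes that SOX9 drives elsewhere, 2 were tested, *Sox5* (0.03) and *Col9a1* (0.02), and 0 were called. *Acan*, *Comp* and *Matn1* lay at the floor of 15 in all 4 pools.

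Markers of other cell types moved on the array of replicate 1 beside the members. All 12 urothelium markers were higher with IWP-2 in replicate 1, and 8 were higher in replicate 2. Of all 14336 genes tested, 6971 were higher in replicate 1 and 6875 in replicate 2. The summed signal of the urothelium markers was 142041 without and 178152 with IWP-2 in replicate 1, and 172205 without and 177382 with it in replicate 2. All 7 fibroblast markers were lower in replicate 1, and 5 were lower in replicate 2, with a summed signal of 121480 and 102005, and 107343 and 105054, in the same order. The control pool of replicate 1 thus held the lowest urothelial and the highest fibroblast signal of the 4 pools, in the pool where *Tshz3* was highest. The part of these shifts in the values of *Tshz3* and the other members was not tested.

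Limma called 1 of the fibroblast markers lower, *Aldh1a2*, the retinoic acid synthesizing enzyme of lamina propria fibrocytes, with −0.63 (SE 0.084, adjusted p = 0.0281). It called 0 of the 12 urothelium markers. With normexp background correction the urothelial factor gene *Grhl3* (0.39, adjusted p = 0.0463) and the fibroblast marker *Thy1* (−0.48, adjusted p = 0.0304) passed as well. Macrophage markers were higher on both arrays in 5 of 6, beside 25.7% of all genes tested. Their summed signal was 7028 and 7000.8 in the control pools and 7594 and 7790 in the treated pools. The summed signal of 6 endothelium markers was 15027 and 12890.5 in the control pools and 13802.5 and 13300 in the treated pools. That of 5 Schwann cell and neuron markers ranged from 4989 to 5852 in the control pools and from 3774 to 5758 in the treated pools. The podocyte marker *Nphs1*, the tubule marker *Umod* and the skeletal muscle markers *Myod1*, *Myog* and *Myh3* lay at the floor of 15 in all 4 pools. The summed signal of 4 podocyte markers ranged from 1790.4 to 1921 in the control and from 1612.5 to 1779 in the treated pools. That of the 5 nephron markers ranged from 367 to 408 and from 370 to 386. That of the 5 skeletal muscle markers ranged from 4828 to 7051 and from 5428 to 6350. Apart from genes at the floor, the last sum was made of *Acta1* (5430 and 3699 in the control pools) and *Ckm* (1576 and 1084). The study uses CKM as a marker of late SMCs, so this sum is not specific to skeletal muscle.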

How the data were processed

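RNA from 4 pools of P0 ureters was compared on 2 two-colour arrays, with green control and red IWP-2 RNA in replicate 1 and the dyes swapped in replicate 2. The intensities that the authors deposited are Agilent processed signals after background subtraction, detrending and linear and LOWESS dye normalization. The file headers name Feature Extraction 12.2.0.7 and the submitters' processing notes 10.7.3.1. The files also hold mean and background intensities, used for normexp, and a log10 ratio of red over green, used to check direction. The deposited series table holds a score, a signed fold change with 1 decimal (median 1 in each column), which followed the ratios here (r = 0.982 and 0.969 over probes). Its scale and centring are not given in the sources used here. All sample columns were used, and 0 others exist. The build is mm9.

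Control spots (17263) and outlier-flagged spots (3.32% and 3.22%) were left out. No spot was saturated (0). Of the probes, 67.8% to 69.3% per channel were well above background, and the number of arrays limits the precision. Signals were loess-normalized within each array (limma 3.58.1, R 4.3.3), averaged over up to 4 spots, floored at 15 and taken as log2. A gene was its probe with the highest mean signal, where 7395 gene names had more than 1 probe. Genes with a mean signal above 100 in control or treated were fitted with lmFit and eBayes (1 residual degree of freedom, prior 5.49), and p-values were adjusted by Benjamini-Hochberg at 0.05. Intervals are the 95% intervals of that fit. Control and treated pool of a replicate share an array and a sex, and the ratio pairs them by construction. Each condition has 1 pool per sex, so p-values rest on differences between these 2 arrays. The variance used for a gene came largely from all genes, with 5.49 prior and 1 residual degrees of freedom. Both arrays lie on 1 slide. *Xist* and Y-linked transcripts matched the labelled sexes. Summed marker signals include genes below the filter, and some marker genes are not reported here.

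The members and the lists were chosen with earlier results of these data known. From each list, every called gene was to be named, otherwise at most the 4 largest mean changes; other genes (*Mkl2*, *Myl9*, *Foxc2* and the genes at the floor) were named after their values were seen. Called WNT feedback genes whose mean log2 ratios are not given in the report were *Lgr5*, *Wif1*, *Rnf43*, *Nkd1*, *Notum* and *Apcdd1*. Alternatives covered normalization, background, floor, filter, probe choice, pairing, each array alone and the thresholds of the filter. The steps were tested on simulated data, in which every planted change was larger in size than the mean log2 ratio of any member. The spread set between simulated spots was smaller than the median spread on the arrays. That test therefore says nothing of how well changes of the members' size are found. Promoter motifs were counted in RefSeq promoters of GRCm38.p6, which is not the build of the probes.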

Additional observations from a re-analysis of the deposited data

Results flagged for a closer look

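For *Foxc1*, *Tcf21* and *Tshz3* the female array (replicate 1) and the male array (replicate 2) moved in opposite directions. The log2 ratio of IWP-2 over control was −0.76 in replicate 1 and 0.15 in replicate 2 for *Tshz3*. It was −0.084 and 0.098 for *Tcf21*, and −0.054 and 0.051 for *Foxc1*. The difference between the arrays was not tested, since each sex has 1 array, and opposite signs were seen in 45.2% of all genes tested. *Tshz3* had the 85th largest difference between the arrays among 14336 genes.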

How the results depend on the processing

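The count of members called by limma was 0 under every alternative run, and the count past the 1.5-fold filter was 0 as well, also at fold thresholds of 1.2 and 2, with the brighter probe of each gene. Probe 2 of *Foxf1* (0.31 and 0.45) was past 1.2-fold on both arrays. The adjusted p of *Foxf1* probe 1 ranged from 0.107 to 1, that of *Sox9* from 0.174 to 1 and that of *Myocd* from 0.204 to 1.0, and their mean log2 ratios stayed above 0. *Foxc1*, close to 0, turned to 0.038 with median centring and to 0.000986 with Aquantile between arrays. *Tshz2* turned to 0.023 with the mean of its probes. The median of the members was 0.10 without replicate 1 and −0.05 without replicate 2.

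The number of genes called lower, 127, was 248 with normexp, 54 with the mean of all probes and 8 with no replicate block, where the 4 channels were independent samples. The number called higher, 52, was 32 with no further normalization, 85 with median centring, 154 with normexp, 17 with the mean of all probes and 0 with no replicate block. With no filter on signal, or with genes well above background in every channel, 0 were called in either direction. Such tables hold genes at the floor whose 2 ratios are equal by construction, and without them, an alternative chosen after seeing the data, limma called 146 of 17812 genes. The filter gave 255 lower and 136 higher genes at 1.2-fold, and 19 and 0 at 2-fold, in place of 51 and 11. *Aldh1a2* lost its call with the mean of all probes (adjusted p = 0.0636), with no replicate block (adjusted p = 0.365) and with the filter dropped and genes at the floor left out (adjusted p = 0.0581). With no replicate block, *Axin2* and *Lgr5* alone of the 8 WNT feedback genes stayed called. *Apcdd1* also lost its call with the mean of all probes (adjusted p = 0.0509), where *Axin2* and *Lgr5* were not tested, and with the filter dropped and genes at the floor left out (adjusted p = 0.0516). Median centring moved the median of all genes to 0.04.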
